A study of Mus musculus with 12 samples.

Results

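Genes of redox defence, among them regulators and targets of the transcription factor NRF2, were examined in tumour-associated macrophages (TAMs). The mice were given picrotoxin or its solvent DMSO. The genes were Nfe2l2, Keap1, Sqstm1, Slc7a11, Gclm, Gpx1, Prdx1, Txn1, Txnrd1 and Srxn1, a list of 10 given by name. All 10 were among the 24781 rows of the table, and all 10 passed the filter of a mean above 1 normalised molecule, which left 9580 genes to test. The mice were wild type (WT) and carried tumours of MC38, a mouse colon adenocarcinoma line. They received DMSO or picrotoxin, which blocks GABA-gated chloride channels, by intraperitoneal injection from the day before inoculation and then every other day. From each tumour, on day 7, 100 cells positive for CD45 and CD11b with high F4/80 were sorted into each library, with 6 DMSO and 6 picrotoxin libraries in all. Mice were 2 to 5 months old, with no age given for each group. The study's methods describe a library per mouse, but a legend gave fewer mice than libraries, so p-values may be too small where libraries share a mouse. Because 100 cells were pooled, a gene active in fewer cells and a gene less active in each cell cannot be told apart.

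NRF2, the product of Nfe2l2, drives a battery of antioxidant and detoxifying genes when cells meet oxidants or electrophiles. At rest it is held by KEAP1, an adaptor that hands it to an E3 ubiquitin ligase for degradation, and reactive cysteines of KEAP1 release it under stress. Freed NRF2 pairs with a small MAF protein and binds antioxidant response elements in DNA. Its targets serve linked systems, namely glutathione made from imported cystine, and thioredoxin with the peroxiredoxins that it recharges. Macrophages produce superoxide and take up iron and dying cells, and they rely on these systems to limit damage to themselves.

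The core of the antioxidant response element was searched as TGACNNNGC on both strands of RefSeq promoter windows on GRCm38.p6, the assembly that mm10 stands for, each running from 250 bases before to 50 bases after a start site. It was present in a window of 5 of the 10 genes, against 14.0% of the 27025 genes with a window and 12.4% of the 32851 windows. The 10 genes were listed partly as NRF2 targets, so the 5 of 10 is a description and not a test. The 5 sites are printed as matches to this core, in the direction of the gene, with the core in capitals. A match of letters is a description and not a bound site.

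Nfe2l2, chr2:75704885-75704913, minus strand, core on the strand of the gene from 240 bases before the start: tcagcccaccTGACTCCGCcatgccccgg

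Prdx1, chr4:116685456-116685484, plus strand, core on the opposite strand from 133 bases before the start: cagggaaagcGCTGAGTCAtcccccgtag

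Gclm, chr3:122245413-122245441, plus strand, core on the opposite strand from 134 bases before the start: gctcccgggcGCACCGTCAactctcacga

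Txnrd1, chr10:82859104-82859132, plus strand, core on the opposite strand from 92 bases before a start inside the gene: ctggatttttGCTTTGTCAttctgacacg

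Srxn1, chr2:152105542-152105570, plus strand, core on the opposite strand from 28 bases after the first transcribed base: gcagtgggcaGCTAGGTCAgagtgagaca

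Between 201697 and 309617 molecules were counted per library. In the smallest, a gene counted at 0 could still have held a share of up to 0.00149%, or 3 molecules. This limit, like all intervals on counts here, covers counting error only. Defining transcripts of macrophages were abundant, with 2721 to 4142 molecules of 13 markers in DMSO and 3110 to 3883 in picrotoxin libraries. Fibroblast and matrix markers were uneven, at 18 to 821 molecules of 13 genes in DMSO and 10 to 58 in picrotoxin libraries. None of the 13 was at 0 throughout, and all 10 that were tested had lower estimates with picrotoxin (8 with an unadjusted p under 0.05 in edgeR). They took 0.297% of molecules in DMSO replicate 5 and 0.09% in DMSO replicate 3. The highest sums in a library were 6 molecules for neutrophil, 7 for dendritic cell, 3 for B cell and 21 for MC38 epithelial markers. Epcam, Krt18, Krt19 and Ly6g were at 0 throughout. Of the 21 epithelial molecules, in picrotoxin replicate 5, 20 were Cdh1, which held 8 to 20 molecules in every library. Cdh1 had a log2 fold change of 0.70, with p-values in edgeR of 0.00964 before and 0.428 after adjustment. For T and NK cell markers the highest sum was 1 in DMSO libraries. It was 22 in picrotoxin replicate 6, of which 20 were Gzmb, and 0 to 2 in the other picrotoxin libraries. Cd3e, Cd3g, Cd8a and Gzma were at 0 throughout. The labels gave no batch, but earlier results of these data set libraries numbered 1 and 2 apart from 3 to 6, so values within these strata are given for genes whose estimates differed in sign or size between them. The ribosomal RNA row Rn45s took 7.37 to 13.7% of molecules in DMSO and 11.7 to 15.2% in picrotoxin libraries.

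To ask whether GABA receptor blockade altered this programme in TAMs, each gene was compared between picrotoxin and DMSO libraries. After Benjamini-Hochberg adjustment in edgeR none of the 10 genes was under 0.05, where 0.0522% of all tested genes did, and the lowest adjusted p among the 10 was 0.612. An unadjusted p under 0.05 was obtained for 1 of the 10, Nfe2l2, against 7.72% of all tested genes. Of all genes with such a p, 47.6% were higher with picrotoxin, and 29.5% when libraries were scaled by their totals. In DESeq2, 0 of the 10 had an unadjusted p under 0.05, against 387 of all 9580 tested genes. The log2 fold changes ran from -0.57 for Srxn1 to 0.36 for Slc7a11, with a median of 0.01 beside -0.01 over all tested genes. Estimates were above 0 for 6 genes and below 0 for 4, while 49.3% of all tested genes were above 0. The groups overlapped for every one of the 10, while 0.386% of all tested genes had groups without overlap.

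**Figure D1:**
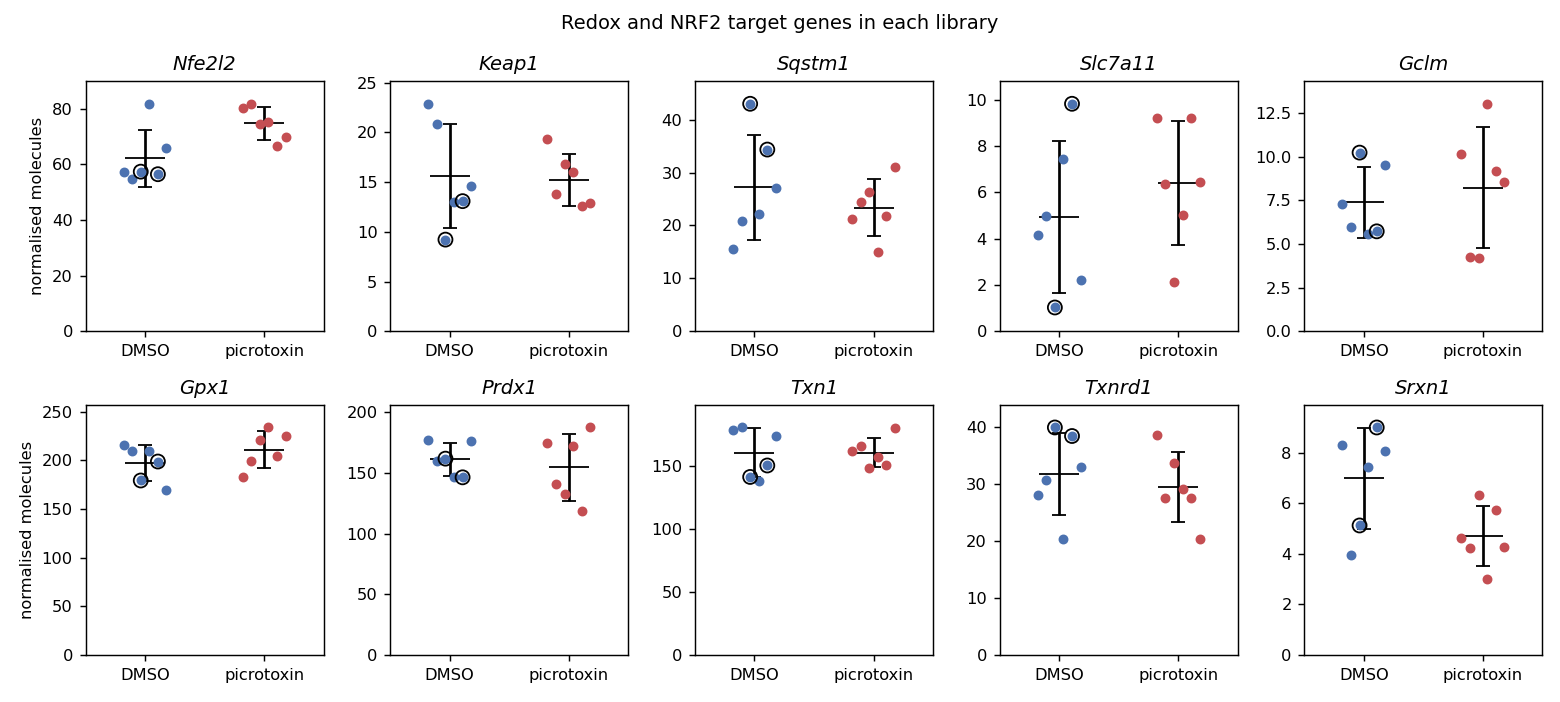
Normalised molecules (vertical axes, from 0) of the 10 genes in the 6 DMSO and 6 picrotoxin libraries, each point a library, with the mean and SD as bars and DMSO replicates 3 and 5 circled. Nfe2l2 was above the DMSO mean in 6 of 6 picrotoxin libraries and Srxn1 below it in 6 of 6, and the groups overlapped in all 10 panels.

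Nfe2l2 (ENSMUSG00000015839.6, chromosome 2, 75675513 to 75704641, minus strand) encodes NRF2 itself. In DMSO libraries it ran from 54.6 to 81.6 normalised molecules with a median of 57.3, and in picrotoxin libraries from 66.7 to 81.8 with a median of 74.95. DMSO replicate 4, at 81.6, was the only DMSO library within the picrotoxin range, and the DMSO mean was exceeded in 6 of 6 picrotoxin libraries. The means were 62.2 ± 10.3 for DMSO and 74.7 ± 5.83 for picrotoxin (SD, n = 6). On the log2 scale the estimate was 0.27 (SE 0.12), a ratio of 1.21 (95% interval 1.02 to 1.44). The unadjusted p in edgeR was 0.0332 and the adjusted p 0.612, so the difference did not pass over all genes. It was larger in replicates 1 and 2, at 55.9 against 81.0, than in replicates 3 to 6, at 65.3 against 71.6, and this contrast was not tested. In replicates 3 to 6 alone the log2 fold change was 0.15 with an unadjusted p of 0.314 in edgeR. The unadjusted p was 0.05 or more, up to 0.0866, on leaving out any of DMSO replicates 1, 2, 3 and 5 and picrotoxin replicates 1 and 2. Without DMSO replicates 3 and 5, the libraries rich in matrix transcripts, the log2 fold change was 0.20 with an unadjusted p of 0.144 in edgeR.

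Keap1 (ENSMUSG00000003308.15, chromosome 9, 21229730 to 21239361, minus strand), the inhibitor of NRF2, was near equal in the groups. It ran from 9.22 to 22.9 normalised molecules in DMSO with a median of 13.9, and from 12.7 to 19.4 in picrotoxin libraries with a median of 14.9. The means were 15.6 ± 5.21 and 15.3 ± 2.63 (SD, n = 6), and the 95% interval of the fold was 0.739 to 1.36. The estimate was too near 0 to give a direction, and its sign changed under library totals and under DESeq2 size factors. The highest values in DMSO were those of replicates 1 and 2, at 22.9 and 20.9, and the lowest was that of replicate 3. The strata pointed apart, with 21.9 in DMSO against 16.6 in picrotoxin libraries for replicates 1 and 2, and 12.5 against 14.6 for replicates 3 to 6. Keap1 overlaps Gm16754 on the opposite strand, and whether the counting used strand was not stated, so its count is uncertain.

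Sqstm1 (ENSMUSG00000015837.15, chromosome 11, 50199366 to 50210827, minus strand) encodes p62, an autophagy receptor that also binds KEAP1 and is itself an NRF2 target. It ran from 15.6 to 43.0 normalised molecules in DMSO with a median of 24.7, and from 15.1 to 31.1 in picrotoxin libraries with a median of 23.1. The 2 highest DMSO values, 43.0 and 34.4, were those of replicates 3 and 5. The DMSO libraries varied more than counting allows, with a chi-square per degree of freedom of 3.67, against 1.21 in picrotoxin libraries. The log2 fold change was -0.22 (SE 0.21, adjusted p 0.866 in edgeR). Without DMSO replicates 3 and 5 it was 0.09, and with the matrix marker score as a covariate it was -0.003, so its direction rests on these 2 libraries. Its strata pointed apart too, at 18.2 in DMSO against 22.8 in picrotoxin libraries for replicates 1 and 2, and 31.7 against 23.6 for replicates 3 to 6, which include these 2 libraries. Sqstm1 shares 583 bases with Mrnip on the opposite strand, so its count is uncertain as well.

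**Figure D2:**
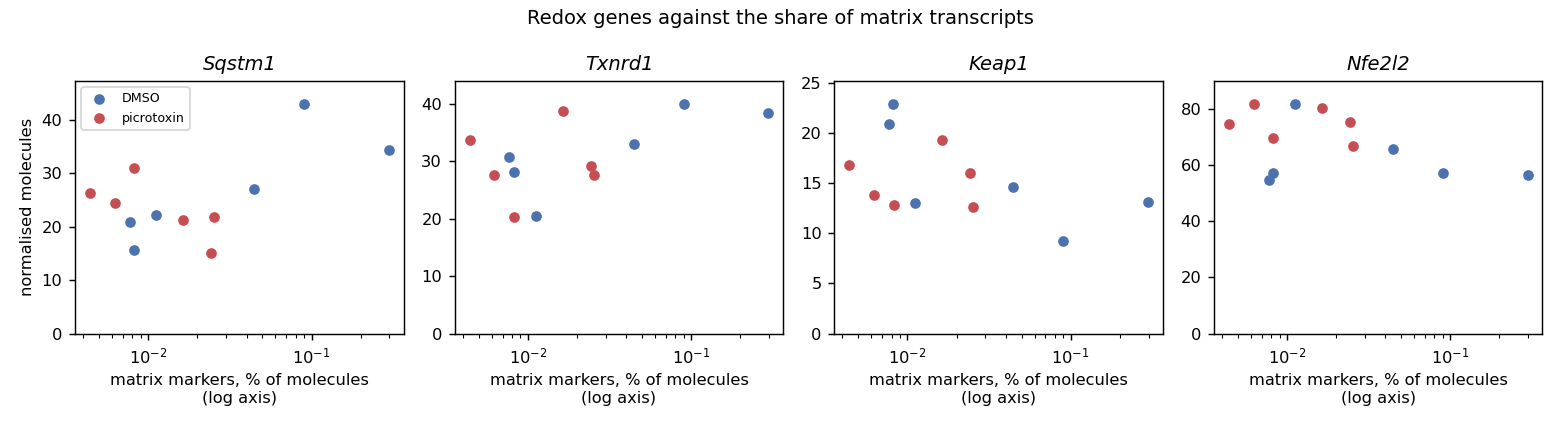
Normalised molecules of Sqstm1, Txnrd1, Keap1 and Nfe2l2 (vertical axes, from 0) against the share of 13 fibroblast and matrix markers among all molecules in percent (horizontal log axis), each point a library. The 2 DMSO libraries farthest to the right, at 0.297% and 0.09%, had the highest Sqstm1, at 34.4 and 43.0.

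The glutathione arm came next. Slc7a11 (ENSMUSG00000027737.10, chromosome 3, 49892526 to 50443614, minus strand) encodes the light chain of the cystine importer, which feeds glutathione synthesis. It was counted at 33 molecules over all DMSO and 37 over all picrotoxin libraries. Its normalised molecules ran from 1.02 to 9.82 in DMSO (median 4.56) and from 2.10 to 9.22 in picrotoxin libraries (median 6.40), so both groups spread over nearly the same range. The fold was 1.29 with a 95% interval of 0.739 to 2.24 (adjusted p 0.886 in edgeR). The chi-square per degree of freedom against counting noise was 2.46 within DMSO, near the 2.47 of Txn1 there, and 1.09 within picrotoxin libraries. The log2 ratio was 0.77 in replicates 1 and 2 and 0.15 in replicates 3 to 6. Slc7a11 overlaps 5 other annotated genes, so its count is uncertain.

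Gclm (ENSMUSG00000028124.15, chromosome 3, 122245557 to 122270732, plus strand) encodes the modifier subunit of glutamate-cysteine ligase, the enzyme of the first step of glutathione synthesis. It ran from 5.57 to 10.2 normalised molecules in DMSO (median 6.62) and from 4.21 to 13.0 in picrotoxin libraries (median 8.89). Picrotoxin libraries were both the lowest and the highest, and 4 of 6 exceeded the DMSO mean. The chi-square per degree of freedom against counting noise was 0.626 within DMSO and 1.4 within picrotoxin libraries. The log2 fold change was 0.17 (SE 0.30, adjusted p 0.947 in edgeR). Parts of its transcripts recur in 17 other genes.

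Gpx1 (ENSMUSG00000063856.7, chromosome 9, 108338903 to 108340343, plus strand) encodes the cytosolic glutathione peroxidase, a selenoprotein that reduces hydrogen peroxide. It ran from 169.9 to 215 normalised molecules in DMSO (median 204) and from 183 to 234 in picrotoxin libraries (median 213). The means were 197 ± 18.5 and 211 ± 18.9 (SD, n = 6), and 5 of 6 picrotoxin libraries exceeded the DMSO mean. The fold was 1.08 with a 95% interval of 0.942 to 1.24 (adjusted p 0.849 in edgeR). The strata pointed apart, with 212 in DMSO against 191 in picrotoxin libraries for replicates 1 and 2, and 189 against 221 for replicates 3 to 6. Within replicates 3 to 6 alone the unadjusted p was 0.0317 and the adjusted p 0.471 in edgeR.

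The thioredoxin arm held 4 of the 10 genes. Prdx1 (ENSMUSG00000028691.12, chromosome 4, 116685544 to 116700822, plus strand) encodes a peroxiredoxin, which reduces peroxides through a reactive cysteine. It ran from 146 to 177 normalised molecules in DMSO (median 161) and from 118.5 to 187.5 in picrotoxin libraries (median 157). The picrotoxin libraries were more scattered than the DMSO libraries and enclosed them, with a chi-square per degree of freedom of 4.57 against 1.31. The fold was 0.968 with a 95% interval of 0.827 to 1.13 (adjusted p 0.959 in edgeR). The Prdx1 transcript shares up to 597 bases at 98.3% identity with 3 other genes, so its count is uncertain.

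Txn1 (ENSMUSG00000028367.5, chromosome 4, 57943373 to 57956411, minus strand) encodes thioredoxin, which restores oxidised peroxiredoxins. It ran from 138 to 181 normalised molecules in DMSO (median 162) and from 148 to 180.0 in picrotoxin libraries (median 159.8), and the picrotoxin values lay inside the DMSO range. The means were 160.6 ± 19.4 and 160.7 ± 11.5 (SD, n = 6). The 95% interval of the fold was 0.873 to 1.17, and the sign of the estimate changed under library totals. The log2 ratio was -0.13 in replicates 1 and 2 and 0.08 in replicates 3 to 6. Its transcript shares 309 bases at 95.8% identity with Txn-ps1.

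Txnrd1 (ENSMUSG00000020250.10, chromosome 10, 82833951 to 82897712, plus strand) encodes thioredoxin reductase, the selenoprotein that recharges thioredoxin with electrons from NADPH. It ran from 20.4 to 39.95 normalised molecules in DMSO (median 31.9) and from 20.4 to 38.7 in picrotoxin libraries (median 28.4), nearly the same span. DMSO replicates 3 and 5 were the highest of their group here too, at 39.95 and 38.5. The log2 fold change was -0.09 (SE 0.17, adjusted p 0.951 in edgeR), and it was 0.08 without these 2 libraries. Replicates 1 and 2 had 29.4 in DMSO against 33.2 in picrotoxin libraries, and replicates 3 to 6 had 32.9 against 27.7. Txnrd1 overlaps 3 other genes, among them Eid3.

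Srxn1 (ENSMUSG00000032802.8, chromosome 2, 152105516 to 152111376, plus strand) encodes sulfiredoxin, which repairs overoxidised peroxiredoxins. It had the largest estimate below 0 among the 10 genes. It ran from 3.97 to 8.998 normalised molecules in DMSO (median 7.74) and from 3.01 to 6.31 in picrotoxin libraries (median 4.45). All 6 picrotoxin libraries lay below the DMSO mean, while DMSO replicates 2 and 3, at 3.97 and 5.12, lay within the picrotoxin range. In all, 47 molecules were counted in DMSO and 27 in picrotoxin libraries. The fold was 0.672 with a 95% interval of 0.427 to 1.06 and p-values in edgeR of 0.084 before and 0.734 after adjustment. The scatter in each group was below counting noise, at 0.587 and 0.284 as chi-square per degree of freedom. The log2 fold change stayed between -0.68 and -0.47 on dropping each library singly, and it was -0.57 without DMSO replicates 3 and 5.

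**Figure D3:**
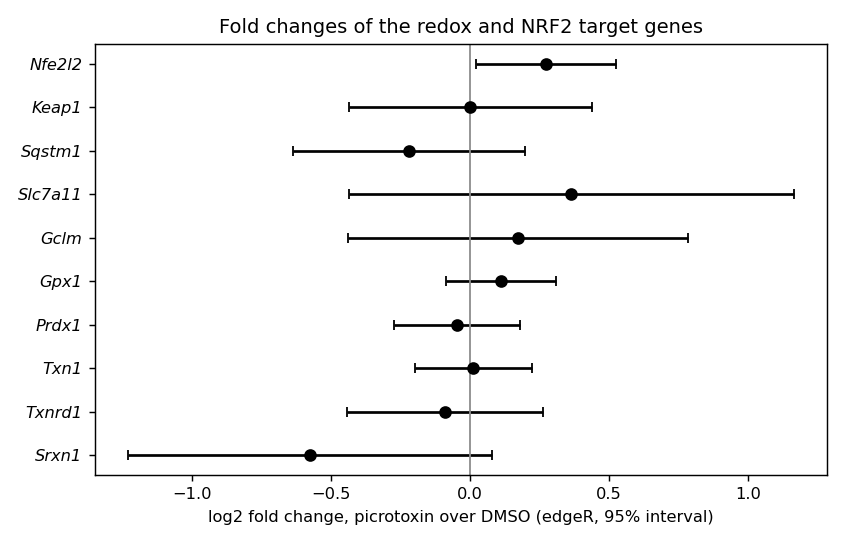
Log2 fold changes of the 10 genes between picrotoxin and DMSO libraries with 95% intervals from edgeR. The interval of Nfe2l2, 0.02 to 0.53 before adjustment over all genes, lay above 0, and the other 9 included 0, the widest being that of Slc7a11.

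High and low values were spread over the libraries. No library was the highest of its group for more than 3 of the 10 genes. DMSO replicate 1 was the highest for Keap1, Prdx1 and Gpx1, whereas DMSO replicate 3 was the highest for Txnrd1, Gclm and Sqstm1 and the lowest for Keap1 and Slc7a11. Picrotoxin replicate 5 was the lowest for Nfe2l2, Keap1 and Prdx1.

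A wider list of redox genes, written from general knowledge with earlier results of these data known, was then read by role. Of its 106 symbols 99 were in the table and 81 were tested, none with an adjusted p under 0.05 in edgeR. An unadjusted p under 0.05 was obtained for 8 of the 81, or 9.88% against 7.72% of all tested genes, 3 with estimates above 0 and 5 below. The 5 include both Gstp1 and Gstp2, near-identical copies that stand for a single measurement. Estimates were above 0 for 32 genes (39.5%) and below 0 for 49, while 49.3% of all tested genes were above 0. The median log2 fold change was -0.06 beside -0.01 over all tested genes. In DESeq2, 3 of these 81 genes had an unadjusted p under 0.05, against 387 of all 9580 tested genes.

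Among the partners and regulators of NRF2 was Mafg (chromosome 11, 120625117 to 120633600, minus strand). It was the only gene of the wider list whose groups did not overlap, or 1 of 81 tested, against 0.386% of all tested genes. It encodes a small MAF protein that pairs with NRF2 on DNA, and with the repressor BACH1. Its normalised molecules ran from 10.4 to 25.1 in DMSO (median 20.7) and from 26.7 to 36.8 in picrotoxin libraries (median 30.6). The log2 fold change was 0.69 (SE 0.18), with an unadjusted p of 0.00052 and 0.178 after adjustment in edgeR. It passed in 1 of 24 alternatives, with an adjusted p of 0.0435 when every gene with at least 1 molecule was tested, and the adjusted p over the alternatives ran from 0.0435 to 0.592. Without DMSO replicates 3 and 5 the log2 fold change was 0.72. Mafg shares 124 bases with Sirt7 on the same strand, and Sirt7 had a log2 fold change of 0.01. Of the other 10 genes of this role 6 had estimates above 0 and 4 below, with Gsk3b at 0.20 and Rbx1, a subunit of the ligase that acts with KEAP1, at 0.01 on the log2 scale.

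**Figure D4:**
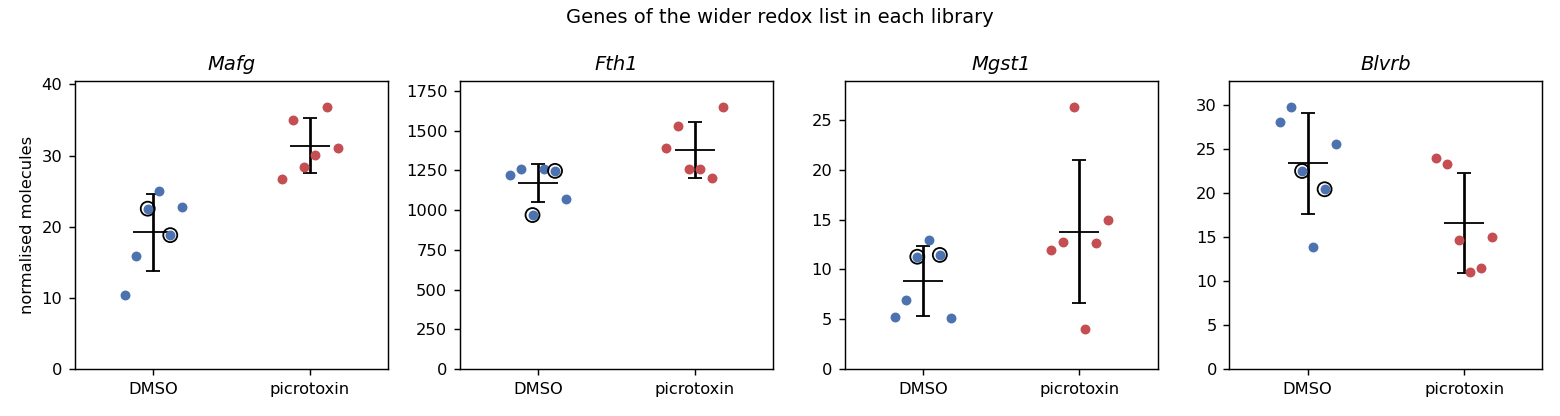
Normalised molecules (vertical axes, from 0) of 4 genes of the wider list in each library, with the mean and SD as bars and DMSO replicates 3 and 5 circled. Mafg had no overlap between groups, at 10.4 to 25.1 in DMSO and 26.7 to 36.8 in picrotoxin libraries, while Fth1, Mgst1 and Blvrb overlapped. Of all tested genes 0.386% had no overlap.

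In glutathione synthesis and cystine uptake 5 of 6 tested genes had estimates below 0, with no unadjusted p under 0.05. Slc3a2, the heavy chain that pairs with the product of Slc7a11, had means of 50.1 ± 3.02 for DMSO and 47.3 ± 11.4 for picrotoxin (SD, n = 6). Gclc, the catalytic partner of the product of Gclm, had 6.65 ± 4.39 and 5.35 ± 2.73. Its log2 fold change was -0.32, and in replicates 3 to 6 alone -1.14, with p-values in edgeR of 0.0103 before and 0.327 after adjustment. Replicates 1 and 2 pointed the other way for Gclc, at 1.04 and 1.99 normalised molecules in DMSO against 8.3 and 7.4 in picrotoxin libraries. Among glutathione peroxidases and transferases 7 of 8 tested genes had estimates below 0. Mgst1, a microsomal transferase, had a log2 fold change of 0.65 with an unadjusted p of 0.0433 in edgeR. Its highest value, 26.3, was that of picrotoxin replicate 3, without which the log2 fold change was 0.36 with an unadjusted p of 0.252. Gstp1 and Gstp2 had log2 fold changes of -0.80 and -0.78, with unadjusted p-values of 0.0174 and 0.02 in edgeR. These 2 copies share 707 bases at 98.2% identity and stand for a single measurement. Their estimates were -0.37 each without DMSO replicates 3 and 5, with an unadjusted p of 0.318. Gpx4, the peroxidase of lipid peroxides, had a log2 fold change of -0.17 and Gsto1 of -0.13.

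In the thioredoxin, glutaredoxin and peroxiredoxin role 8 of 13 tested genes had estimates above 0, none with an unadjusted p under 0.05. Prdx5 had means of 170.1 ± 41.0 for DMSO and 172 ± 25.9 for picrotoxin (SD, n = 6), and Glrx 50.8 ± 15.5 and 54.3 ± 12.6. The superoxide dismutases Sod1 and Sod2 had log2 fold changes of -0.002 and 0.18. Of the genes that supply NADPH, Pgd and Taldo1 of the pentose phosphate pathway had log2 fold changes of -0.001 and 0.07. Me1, malic enzyme, had -1.83 with an unadjusted p of 0.0324 in edgeR, from 0 to 8 molecules per DMSO and 0 to 2 per picrotoxin library, and -1.37 with a p of 0.146 without DMSO replicates 3 and 5. It shares 1716 bases at 98.4% identity with Gm7049.

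Of the quinone, heme and iron genes, Fth1, the heavy chain of the iron store ferritin, ran from 969 to 1258 normalised molecules in DMSO (median 1235) and from 1201 to 1648 in picrotoxin libraries (median 1323). The log2 fold change was 0.25 (SE 0.09), with an unadjusted p of 0.00783 and 0.41 after adjustment in edgeR. It shares 274 bases with another annotated gene. The light chain Ftl1 had -0.10. Blvrb, which reduces biliverdin and flavins, had means of 23.4 ± 5.78 for DMSO and 16.6 ± 5.71 for picrotoxin (SD, n = 6), and its log2 fold change was -0.46, with an unadjusted p of 0.0401 in edgeR. Of the detoxification and export genes 8 of 9 had estimates below 0, with a median of -0.19 and no unadjusted p under 0.05. The most abundant were Akr1a1 at -0.01 and Abcc1 at -0.16. Among autophagy genes related to Sqstm1 5 of 8 had estimates above 0, with Gabarap at -0.05 and Tax1bp1 at 0.24. Among other selenoproteins and their synthesis 7 of 10 had estimates below 0. Selenop and Selenof had 0.07 and -0.10, and Eefsec, the elongation factor for selenocysteine, had -1.09 with an unadjusted p of 0.0467 in edgeR, at 4.25 ± 2.25 and 1.99 ± 1.67 normalised molecules (SD, n = 6).

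**Figure D5:**
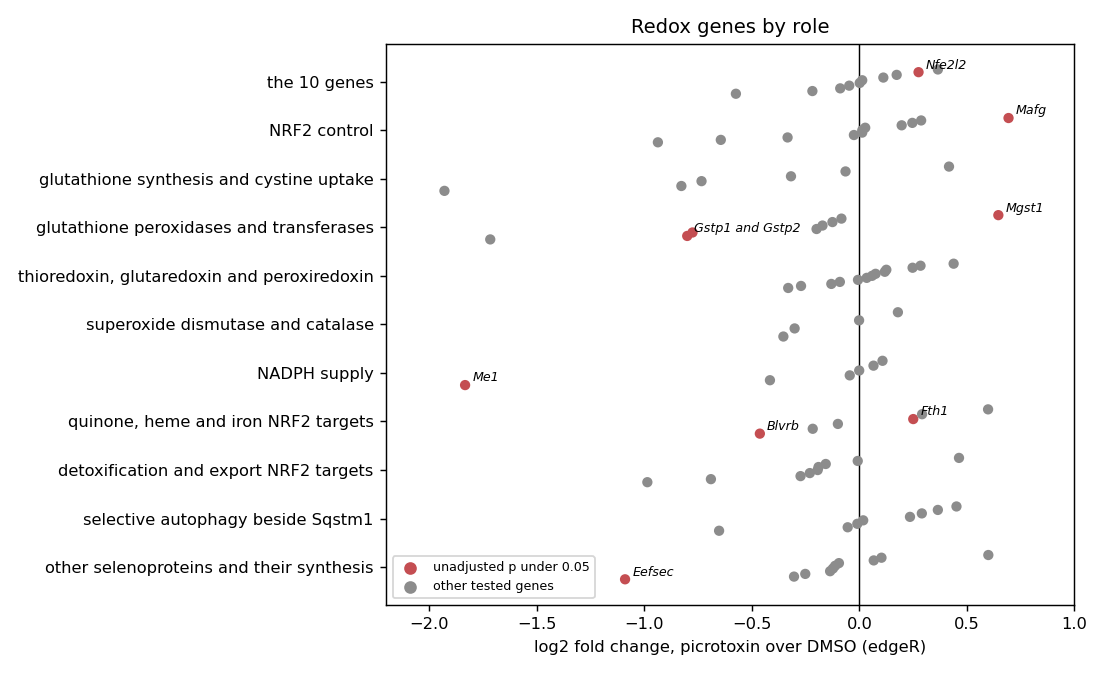
Log2 fold changes between picrotoxin and DMSO libraries (horizontal axis) of the 10 genes and of the tested genes of the wider list by role, each point a gene, with red for an unadjusted p under 0.05 in edgeR. Nfe2l2 was the single red point of the 10 genes, and 8 of the 81 others were red, Mafg farthest to the right at 0.69.

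Measures of handling and of the sort were set beside these genes, and of those named here Hspa1b alone passed. The heat shock genes Hspa1a and Hspa1b had log2 fold changes of 1.25 and 1.74, adjusted p-values in edgeR being 0.0603 and 0.0301, and the call of Hspa1b was lost on leaving out any of DMSO replicates 3, 5 and 6 and picrotoxin replicates 2 to 5 (adjusted p 0.0811 to 0.204). Of 11 genes of the stress list 4 had an unadjusted p under 0.05 in edgeR, against 7.72% of all tested genes. These 4 were higher with picrotoxin, while over all 11 the estimates were above 0 for 7 and below 0 for 4. Rn45s had a log2 fold change of 0.41 with an adjusted p of 0.118 in edgeR. The sort markers Itgam, Adgre1 and Ptprc had log2 fold changes of 0.38, 0.19 and 0.09, adjusted p-values in edgeR being 0.408, 0.78 and 0.925. With Rn45s left out the log2 fold changes of Nfe2l2, Srxn1 and Mafg were 0.25, -0.60 and 0.67. They were 0.215, -0.49 and 0.74 once the matrix score entered the model. The part of stress genes in these values was not tested.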

How the data were processed

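RNA of 100 sorted macrophages per library was counted in 6 DMSO and 6 picrotoxin libraries. The deposited table holds counts, as whole molecules for each gene symbol, which the authors made from barcoded oligo-dT cDNA by mapping to mm10 with STAR and the refFlat annotation. How shared reads, strand and barcode errors were handled is not given in the sources used here. Groups came from the titles of the samples, and the members and lists were chosen with earlier results of these data known. Genes with a mean above 1 molecule, after division by DESeq2 size factors, were tested in edgeR 4.0.16 (quasi-likelihood F test, TMM) with Benjamini-Hochberg adjustment over all of them, with DESeq2 1.42.0 and limma 3.58.1 as alternatives. Standard errors and 95% intervals were derived from the F statistic. Normalised molecules are counts over size factors, and the matrix score is the mean log2 CPM of its markers (prior count 2). Named genes of the wider list were those with an unadjusted p under 0.05 and the 2 with the highest mean in each role. Positions are GENCODE M21 on GRCm38, overlaps were taken from it, and shared segments from blastn (at least 100 bases, 95% identity). No pair of libraries of a group was a copy (chi-square per degree of freedom 1.23 to 3.15).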

Additional observations from a re-analysis of the deposited data

Results flagged for a closer look

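Single extreme libraries were sought in both groups by Dixon's ratio. The checks covered the 10 genes, the named genes of the wider list, the sort markers, Hspa1a, Hspa1b and Rn45s. Other markers of cell types, among them Gzmb, were not checked. Of the 86 checks 2 met the limit, where chance gives about 1 in 20, or 4.3. Itgam was lowest in picrotoxin replicate 1, at 152.1 normalised molecules while the others held 176.7 to 190.7. Selenop was highest in picrotoxin replicate 6, at 102.9 against 86.25 to 91.48. None of the 10 redox genes met this criterion in either group.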

How the results depend on the processing

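No p-value of the 10 genes fell under the adjusted threshold in any alternative. Nfe2l2 lost its unadjusted p under 0.05, so that 0 of 10 had one, with library totals, with DESeq2, with the matrix score as a covariate and without DMSO replicates 3 and 5 (chosen after seeing the data), and the count was 0 to 1 on dropping each library singly. In replicates 3 to 6 alone and without DMSO replicate 2 the count stayed at 1, but the gene was Gpx1 (p 0.0317) or Srxn1 (p 0.0452) in edgeR, and not Nfe2l2 (p 0.314 and 0.067). Nfe2l2 kept its p in 6 of the 12 fits that each lacked a library. The wider list had 1 call, Mafg, when every gene with at least 1 molecule was tested. Its count of unadjusted p-values under 0.05 was 3 with DESeq2, 3 with a mean above 10 and 13 in replicates 3 to 6 alone. It was 5 with the matrix covariate and 5 to 10 without each library. The all-gene counts moved too, at 387 of 9580 with DESeq2, 397 of 3741 with a mean above 10 and 929 of 9666 in replicates 3 to 6. They were 557 of 9580 with the matrix covariate and 609 to 831 without each library. A mean above 10 also left fewer genes of the list to test. Calls over all genes, 5 here, were 14 with library totals, 3 with limma-voom, 81 with every gene of at least 1 molecule, 27 with the strata as a term, 48 in replicates 3 to 6, 0 with the matrix covariate (557 at an unadjusted p under 0.05 in edgeR), 12 without Rn45s, 1 without DMSO replicates 3 and 5, and 0 to 25 without each library. They were 0 without DMSO replicate 5, DMSO replicate 6 or picrotoxin replicate 2, 3 or 4 (609, 628, 692, 680 and 704 at an unadjusted p under 0.05), 1 when DMSO replicate 3 or picrotoxin replicate 1 was dropped, 3 when picrotoxin replicate 5 was, and 25, 23 and 15 without DMSO replicates 1, 2 and 4. Genes at an unadjusted p under 0.05 numbered 387 with DESeq2 and 397 with a mean above 10. Same-numbered libraries did not deviate together (r from -0.0156 to 0.0462, with 0 of 6 above 0.1), and the replicate block gave 43 calls.

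Signs turned as follows, and the cause was not tested. Keap1 had log2 fold changes of -0.054 with library totals, -0.01 with DESeq2 size factors, -0.016 with DESeq2, -0.015 with every gene, -0.023 with a mean above 10, -0.011 with the strata, -0.018 with the replicate block, -0.168 with the matrix covariate, -0.022 without Rn45s and -0.185 without DMSO replicates 3 and 5. With library totals Txn1, Rbx1 and Prdx5 had -0.042, -0.042 and -0.019. Txn1 and Rbx1 had -0.003 and -0.004 with every gene, -0.012 and -0.013 with a mean above 10, and -0.011 each without Rn45s. With the matrix covariate Txn1, Txnrd1, Gsto1, Gclc, Taldo1, Rbx1, Sod1, Prdx5, Glrx and Ptprc had -0.044, 0.055, 0.19, 0.07, -0.086, -0.037, 0.028, -0.112, -0.05 and -0.076. Without DMSO replicates 3 and 5 Txn1, Txnrd1, Sqstm1, Gsto1, Gclc, Taldo1, Pgd, Rbx1, Sod1, Prdx5 and Ptprc had -0.059, 0.075, 0.092, 0.163, 0.052, -0.059, 0.015, -0.003, 0.044, -0.074 and -0.07. Gabarap had 0.002 in replicates 3 to 6 and Sod1 0.008 with limma-voom. With each library left out in turn Keap1 ran from -0.114 to 0.132, Prdx1 from -0.112 to 0.018, Txn1 from -0.036 to 0.052, Gclm from -0.003 to 0.307, Akr1a1 from -0.051 to 0.02, Abcc1 from -0.308 to 0.002, Gsto1 from -0.284 to 0.038, Slc3a2 from -0.157 to 0.015, Pgd from -0.048 to 0.061, Rbx1 from -0.046 to 0.054, Sod1 from -0.068 to 0.038, Prdx5 from -0.038 to 0.151 and Glrx from -0.009 to 0.217. Srxn1, Slc7a11 and Gclm were counted at 27 to 49 molecules per group, which limits their precision.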
